A study of Boehmeria nivea with 10 samples.

Results

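In ramie roots, 52 small groups of transcript sequences taken as related held 1 sequence that was higher in water and another that was higher in soil. Ramie (Boehmeria nivea) is a bast-fibre crop of the nettle family. Its root RNA was assembled without a genome into contigs, and contigs with the same cluster number in their identifiers are taken as alike. The members described here are all 126 contigs of these 52 clusters, out of 40300 contigs and 3597 clusters of 2 to 4 listed contigs. The members were selected on FPKM in hydroponic against terrestrial roots. A cluster was taken when 1 contig had a mean FPKM in the 6 hydroponic libraries at least 1.5 times its terrestrial mean, with every hydroponic library above every terrestrial one, and another contig showed the reverse. Both contigs had to average 1 FPKM or more across all 9 libraries. FPKM is the authors' read abundance scaled for contig length and sequencing depth. The first kind is called water-high here (57 contigs) and the second soil-high (55 contigs), and 14 contigs of the same clusters met neither direction.

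The study followed roots as they formed in water and adjusted to it. Early hydroponic roots (3 libraries) came from 5-day-old seedlings at an early stage of root induction in water. Late hydroponic roots (3 libraries) came from 30-day-old seedlings at a late stage of induction in water, and terrestrial roots (3 libraries) from 30-day-old seedlings grown in soil. No genotype, cultivar or chemical treatment is given for any group. Nothing states that replicate libraries are from different plants, so p-values measure only the spread between libraries, and that spread may be technical. Early hydroponic and terrestrial roots differ in seedling age as well as in medium. These are bulk root samples, so a change in the number of cells of a type and a change of RNA per cell cannot be told apart.

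Roots that form in water meet less oxygen and less mechanical resistance than roots in soil, and water roots of many plants develop air spaces and few root hairs. A plant gene can give several transcripts through alternative splicing or alternative start and end sites, and related genes or the alleles of 1 gene can give transcripts that differ in a few bases. De novo assembly can place any of these in 1 cluster. Opposite moves within a cluster can therefore concern splice forms, alleles, close paralogues or fragments of 1 transcript. The tables pair no contig with a gene name or description, so no function is given for any member, and no member sequence is shown.

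Library totals ran from 9499903 to 11522430 expected counts, and 33480 to 35313 contigs were listed per library. A contig not listed in a library was entered as 0. The listed values were whole numbers in 74.7 to 75.4% of cases. Fractional values arise where reads match more than 1 contig and are divided between them by estimation.

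Switching of this kind was uncommon among small clusters. The rule held for 1.45% of clusters of 2 to 4 contigs. Counted by single contigs, 18.4% of all contigs with a mean of at least 1 FPKM met the water-high criterion and 25.6% the soil-high criterion. The cluster share is not directly comparable, since it also counts clusters with contigs below that mean. These shares come from the contrast that chose the members and are given as description, with no test. Of the 52 clusters, 33 had 2 contigs, 16 had 3 and 3 had 4. The 57 water-high contigs had a median of 11.6 FPKM in early hydroponic, 9.27 in late hydroponic and 2.81 in terrestrial roots. The 55 soil-high contigs had medians of 3.07, 4.68 and 14.7 FPKM in the same order.

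The size of the switch varied widely among clusters. Among the water-high contigs the ratio of hydroponic to terrestrial mean FPKM had a median of 4.03 and ran from 1.66 to 25.1 in the 56 with a terrestrial value. Among the soil-high contigs the ratio of terrestrial to hydroponic mean FPKM had a median of 2.88 and ran from 1.53 to 22.2 in the 53 with a hydroponic value. A ratio of 4 or more was reached by 29 water-high and 17 soil-high contigs. CL3299.Contig2_mixA was listed in no terrestrial library and stood at 9.52, 9.15 and 7.5 FPKM in early and 2.9, 3.17 and 5.8 FPKM in late hydroponic replicates 1, 2 and 3. The reverse was seen in CL2120, where CL2120.Contig2_mixA and CL2120.Contig3_mixA were listed in no hydroponic library and at 5.31 to 12.93 and 7.83 to 13.57 FPKM in the terrestrial ones. Their partner CL2120.Contig1_mixA was at 173 ± 21.9 FPKM early, 171 ± 26.5 late and 23 ± 8.26 terrestrial (SD, n = 3).

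**Figure D1:**
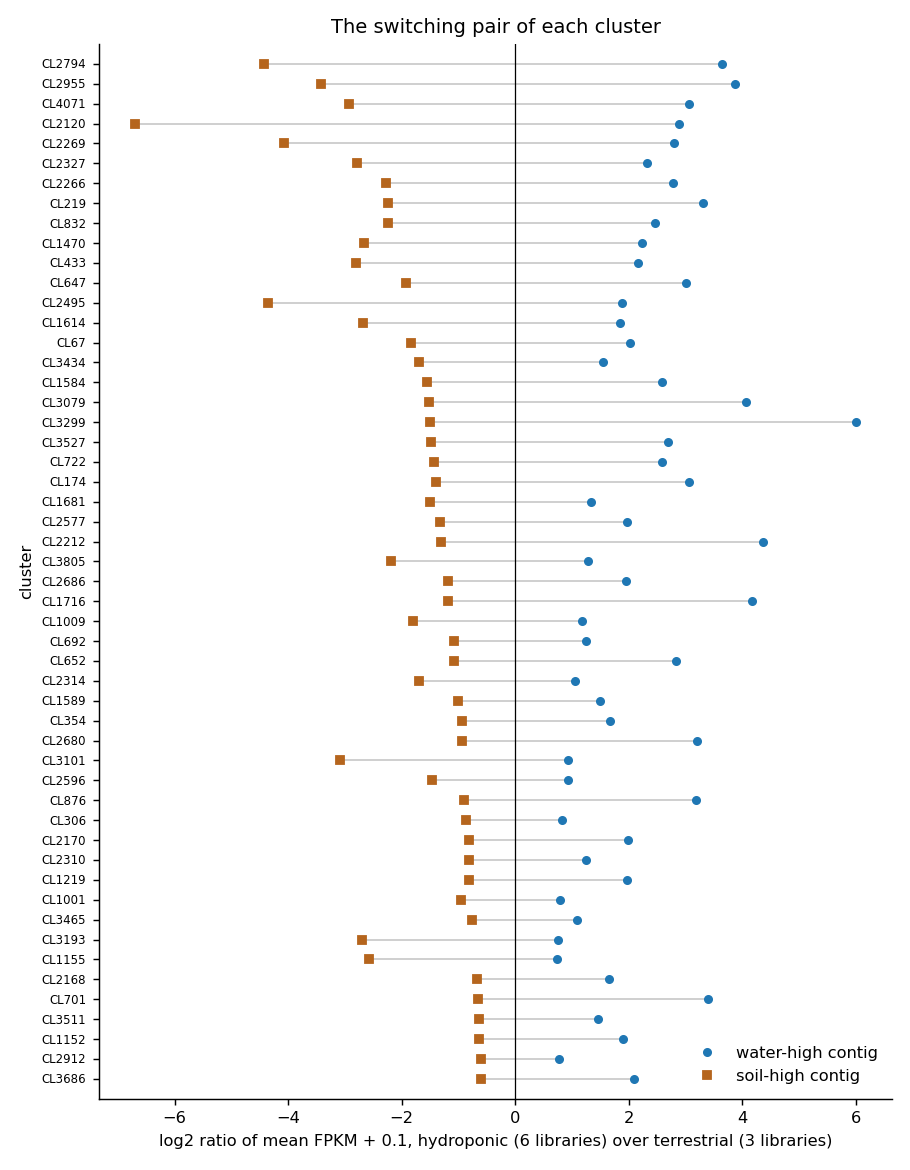
For each of the 52 clusters, the log2 ratio of hydroponic (6 libraries) to terrestrial (3 libraries) mean FPKM, with 0.1 added to both means, is plotted for its strongest water-high contig (circle) and strongest soil-high contig (square), with clusters ranked by the smaller of both changes. The smaller change ran from 0.6 in CL3686 to 3.65 in CL2794, and the widest points of CL3299 and CL2120 are set by the added 0.1 because 1 medium is at 0.

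At the edge of the rule, the soil-high contig of CL3686 was just inside, with a terrestrial mean 1.53 times the hydroponic one (10.32 against 6.77 FPKM). That of CL142 was just outside at 1.46 times (9.1 against 6.22 FPKM), beside a contig at 2.86 FPKM in hydroponic and 0 in terrestrial roots.

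Ranked by the smaller of both changes, the largest switch was in CL2794, whose contigs of 921 and 1014 bases nearly exchanged places between media. The water-high CL2794.Contig1_mixA stood at 16.48, 30.24 and 30.22 FPKM in early, 210.96, 95.48 and 59.75 in late and 5.12, 4.19 and 8.07 in terrestrial replicates 1, 2 and 3. The soil-high CL2794.Contig2_mixA stood at 0.99, 4 and 1.38 FPKM early, 37.03, 45.93 and 14.51 late and 320.07, 528.27 and 271.52 in soil. Late libraries lay above early ones in both contigs, without overlap. The cluster's summed level was 27.8 ± 9.02 FPKM early, 155 ± 87.6 late and 379 ± 135 in terrestrial roots (SD, n = 3). The switch therefore sat on a summed level that was lower in water.

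CL4071 paired a contig of 1564 bases with one of 249 bases. The longer, water-high CL4071.Contig1_mixA was at 24.83, 28.49 and 28.54 FPKM in early, 11.54, 11.93 and 9.62 in late and 3.69, 0.3 and 2.62 in terrestrial replicates. The shorter, soil-high CL4071.Contig2_mixA was at 0.4, 2 and 1.6 FPKM early, 2.78, 4.33 and 0.44 late and 10.71, 23.33 and 11.81 in soil. The 3 groups did not overlap in the longer contig, while early and late libraries overlapped in the shorter one, which had 10 counts over the early and 16 over the late libraries.

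In CL2269 the longer contig was the soil-high one, at 3744 bases against 2448. CL2269.Contig1_mixA was at 1.49, 3.28 and 2.14 FPKM early, 1.61, 4.23 and 2.67 late and 58.12, 28.59 and 48.37 FPKM in terrestrial replicates 1, 2 and 3. CL2269.Contig2_mixA was at 29.42, 23.77 and 28.9 FPKM early, 19.25, 22.73 and 24.79 late and 2.52, 4.66 and 3.26 in soil. Both water stages overlapped in each contig, and the leading contig was the same in all 6 hydroponic libraries and the other one in all 3 terrestrial libraries. No expected count of either contig was whole, and in each library the counts of both contigs added up to a whole number, so their reads were divided within the cluster.

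CL832 and CL722 were less settled in late hydroponic roots. CL832.Contig2_mixA (water-high, 2023 bases) was at 12.2 ± 3.55 FPKM early, 7.29 ± 2.67 late and 1.67 ± 0.0757 in soil, and CL832.Contig1_mixA (soil-high, 1728 bases) at 5.58 ± 1.82, 11.9 ± 2.32 and 41.6 ± 2.41 FPKM (SD, n = 3). In CL832 the water-high contig led in each early library and the soil-high one in each late library. CL722.Contig2_mixA (water-high, 670 bases) was at 31.7 ± 2.91, 18.2 ± 9.39 and 4.07 ± 2.15 FPKM and CL722.Contig1_mixA (soil-high, 1100 bases) at 5.8 ± 1.77, 12.6 ± 2.47 and 24.8 ± 5.84 FPKM in early, late and terrestrial roots. Late replicate 3 of CL722.Contig2_mixA, at 28.98 FPKM, stood near the early level of 29.34 to 34.95, against 11.97 and 13.57 in late replicates 1 and 2.

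The other 3 of the first 8 clusters ran from a near-complete to a partial exchange. In CL433 the water-high CL433.Contig1_mixA (1692 bases) was at 59.3 ± 3.69 FPKM early, 46.1 ± 1.61 late and 11.7 ± 6.82 in soil. Its soil-high partner CL433.Contig2_mixA (307 bases) was unlisted in early replicate 1, at 1.26 and 0.31 FPKM in early replicates 2 and 3, at 7.28, 10.59 and 5.57 late, and at 21.2, 40.39 and 27.84 in soil. CL647 held the shortest pair, of 210 and 258 bases. Its water-high CL647.Contig2_mixA was at 23.4 ± 2.32, 17.1 ± 6.99 and 2.44 ± 0.629 FPKM and its soil-high CL647.Contig1_mixA at 5.03 ± 1.53, 4.75 ± 1.57 and 18.9 ± 2.8 FPKM early, late and in soil (SD, n = 3). In CL3434 the water-high contig moved from 3.05 ± 1.64 FPKM in soil to 10 ± 1.7 early and 8.26 ± 1.52 late, and the soil-high one from 14.7 ± 1.81 to 3.07 ± 0.477 and 5.85 ± 2.56.

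**Figure D2:**
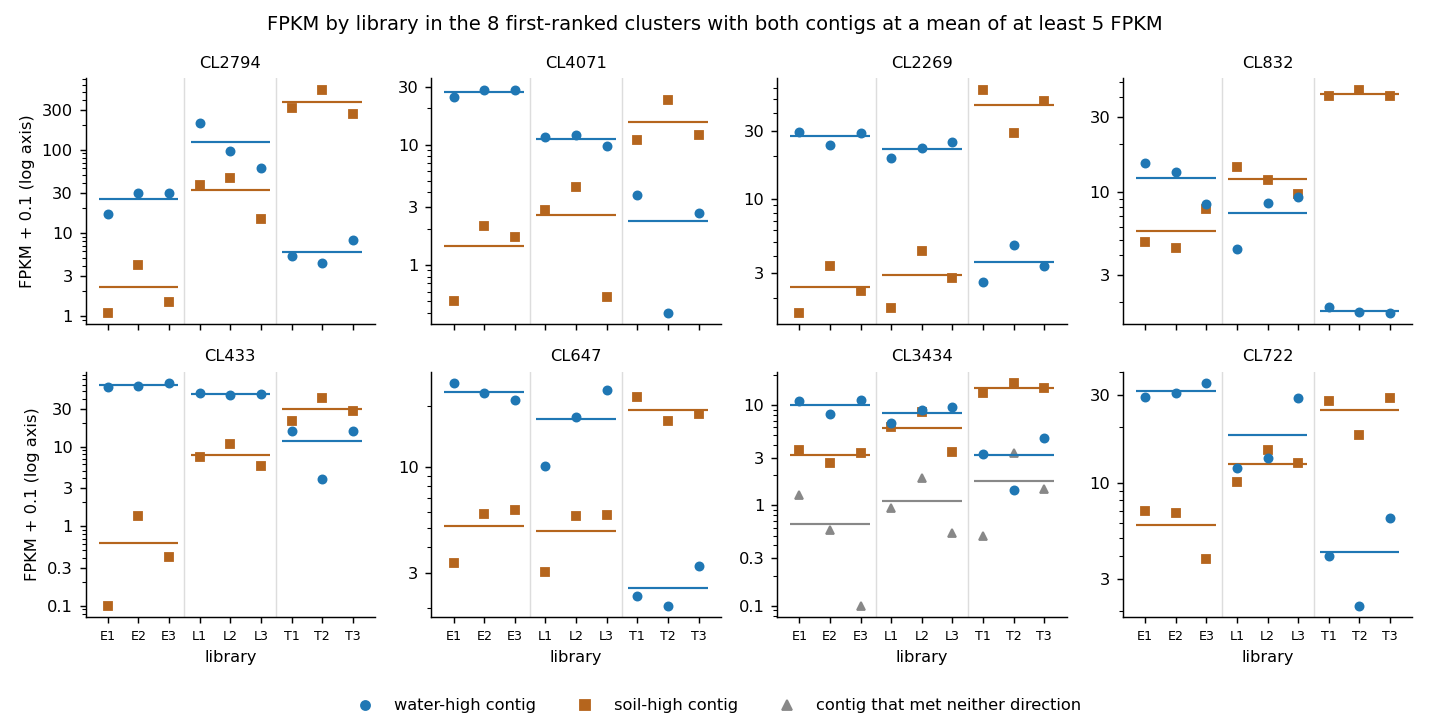
FPKM plus 0.1 (log axis) in each of the 9 libraries (E early hydroponic, L late hydroponic, T terrestrial) is shown for every contig of the 8 clusters with the largest switch among those whose pair averaged at least 5 FPKM each. Points are libraries and short lines are group means of 3, and in CL832 and CL722 the water-high and soil-high contigs meet in late roots, at 7.29 against 11.9 and 18.2 against 12.6 FPKM.

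At the highest levels, the switch concerned a minor contig or a modest ratio. CL3193.Contig2_mixA (1571 bases) stood at 1039 ± 99.7 FPKM early, 878 ± 90.7 late and 571 ± 90.6 in soil. Its soil-high partner CL3193.Contig1_mixA (478 bases) had only 12 counts over all hydroponic and 50 over the terrestrial libraries, and the water-high contig held 98.9 to 100% of the cluster's FPKM in every library. The cluster meets the rule, but the balance of its RNA hardly moved.

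CL692 held 4 contigs of 361 to 559 bases, of which 2 were water-high and 2 soil-high. CL692.Contig2_mixA was at 613.93, 570.17 and 678.51 FPKM early, 482.51, 584.24 and 502.47 late and 227.72, 231.77 and 263.69 in terrestrial replicates. CL692.Contig3_mixA, the more abundant soil-high one, was at 147.22, 117.07 and 147.96 early, 145.98, 172.85 and 121.27 late and 240.26, 245.01 and 279.05 in soil. The leading contig was CL692.Contig2_mixA in every hydroponic library and CL692.Contig3_mixA in every terrestrial one.

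CL2310 lay close to an overlap. Its soil-high CL2310.Contig3_mixA was at 325.77, 256.99 and 259.98 FPKM in early and 176.08, 220.94 and 269.37 in late libraries, against 326.39, 663.85 and 330.07 FPKM in soil. Terrestrial replicate 2 was about as far above the other terrestrial libraries as they were from 0, and the lowest terrestrial library exceeded early replicate 1 by under 1 FPKM. Its water-high contigs CL2310.Contig4_mixA and CL2310.Contig2_mixA were at 299 ± 41 and 192 ± 49.1 FPKM early, 294 ± 29.5 and 184 ± 35.3 late and 125 ± 10.6 and 83.7 ± 8.68 in soil (SD, n = 3).

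The summed level of a cluster adds a contig chosen as high in water to one chosen as low in water, so a sum nearer to equal than the pair is partly fixed by the rule. On the log2 scale the hydroponic over terrestrial ratio of the summed mean FPKM ran from -2.06 to 2.78 with a median of 0.08. It lay within 1.5-fold in 30 of the 52 clusters, above it in 9 and below it in 13. The sum differed least in CL2266, CL2680 and CL2955. In CL2680, with contigs of 705 and 764 bases, the sum was 15.3 ± 1.44 FPKM early, 13.7 ± 2.16 late and 13.8 ± 1.49 in soil (SD, n = 3). The water-high contig held 55.5, 82.8 and 27.9% of it in early, 47.6, 40.6 and 62.6% in late and 17.4, 0 and 0% in terrestrial replicates, so the share was uneven among hydroponic libraries while the sum was not.

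An even sum could hide unlike stages. In CL2955 the 9461-base CL2955.Contig1_mixA was at 20.24, 7.07 and 7.49 FPKM early, 1.09, 1.46 and 0.41 late and 0.32, 0.33 and 0.35 in soil. Its summed level of 12.4 ± 7.69 FPKM early, 1.26 ± 0.188 late and 7.28 ± 2.91 in soil averaged out over the hydroponic libraries. The partner CL2955.Contig2_mixA, of 270 bases, had 7 early, 2 late and 53 terrestrial counts in all. In CL2266 the most abundant contig was CL2266.Contig1_mixA, of 4975 bases, which met neither direction. It was at 31.8 ± 7.5 FPKM early, 36.2 ± 6.45 late and 21.1 ± 3.29 in soil (SD, n = 3). The soil-high CL2266.Contig2_mixA was minor in water, at 1.77 ± 0.856 FPKM early and 5.41 ± 1.43 late. In soil, at 17.7 ± 2.57 FPKM, it was a large part of the sum. The water-high CL2266.Contig3_mixA was minor, at 1.69, 2.95 and 0.253 FPKM early, late and in soil.

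In 29 clusters the contig with the highest mean FPKM differed between media, and in 14 of these it was the same contig in all 6 hydroponic libraries and the other one in all 3 terrestrial libraries. In the remaining 23 clusters 1 contig led in both media. That contig was water-high in 8, soil-high in 13 and of neither direction in 2.

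Of the 14 contigs that met neither direction, the most abundant were in CL174, CL1001 and CL1589. CL174.Contig2_mixA was at 149.72, 137.56 and 150.65 FPKM early, 194.6, 188.35 and 266.16 late and 266.07, 366.96 and 251.58 in soil, so only late replicate 3 reached the terrestrial range. The soil-high CL174.Contig3_mixA was at 95.3 ± 7.79, 184 ± 21.3 and 368 ± 96 FPKM. The water-high CL174.Contig1_mixA was at 12.8 ± 1.05, 30.3 ± 27.1 and 2.49 ± 0.821 FPKM (SD, n = 3), with late replicate 1 at 60.89 against 9.21 and 20.89 in replicates 2 and 3. CL1001.Contig3_mixA, at 75.8 ± 7.91, 69.3 ± 13.9 and 59.4 ± 3.69 FPKM, overlapped between media. CL1589 had 2 such contigs, and its CL1589.Contig1_mixA was at 29.1 ± 2.09, 39.5 ± 11.9 and 34.8 ± 0.731 FPKM, while CL1589.Contig4_mixA was near 35.1 FPKM in water and 70.9 ± 17.8 in soil. Over all 14, the ratio of hydroponic to terrestrial mean FPKM had a median of 0.764 and ran from 0.282 to 3.65.

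Contig length, which entered the rule only through the length scaling of FPKM, differed between the kinds. The median was 1373 bases for water-high and 1100 bases for soil-high contigs, against 1409 bases over the 6761 contigs of all small clusters with a mean of at least 1 FPKM. Contigs under 500 bases numbered 4 of 57 water-high and 18 of 55 soil-high ones. Among all switching contigs they made up 19.6%, against 13.8% of those 6761 contigs. Whether all water-high and soil-high contigs, whatever their cluster, differ in length in the same way was not tested. Within the pairs, the longer contig was the water-high one in 29 clusters and the soil-high one in 22, and lengths were equal in 1. In 16 pairs the lengths were within 1.1-fold of each other. In 11 pairs the longer contig was at least 3 times as long, and it was the water-high one in 9 of these.

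Reads were divided between contigs in most clusters. In 63 of the 112 switching contigs (56.2%) no expected count was whole, and in 27 (24.1%) every count was. The shares were 61.9% and 12% among the 6761 contigs. In 44 of the 52 clusters at least 1 count was fractional. In 31 of these 44 (70.5%) the counts of the cluster's contigs added up to a whole number, within 0.03, in every such library, so their shared reads were divided within the cluster. Over all small clusters with a fractional count the share was 71.4%. In 8 clusters, among them CL4071, CL722, CL174 and CL3193, no count was fractional, so no fractional division of reads shows in their values. Whole counts do not tell whether shared reads were assigned entirely to 1 contig.

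The share of a cluster's FPKM carried by its water-high contigs sums up the balance in each library. Its median over the 52 clusters was 74, 75.3 and 71.6% in early, 61.8, 57.5 and 63.2% in late and 13.7, 10 and 14.2% in terrestrial replicates 1, 2 and 3. Every hydroponic share was above every terrestrial share in all 52 clusters, which the rule largely fixes. The rule used the hydroponic libraries together, not the contrast between the 2 water stages. Late libraries had lower medians than early ones, without overlap. The mean late share lay between the early and terrestrial means in 40 clusters and at or above the early one in 12, and its place above the terrestrial mean follows from the rule. This is a description of members that share libraries, with no test.

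**Figure D3:**
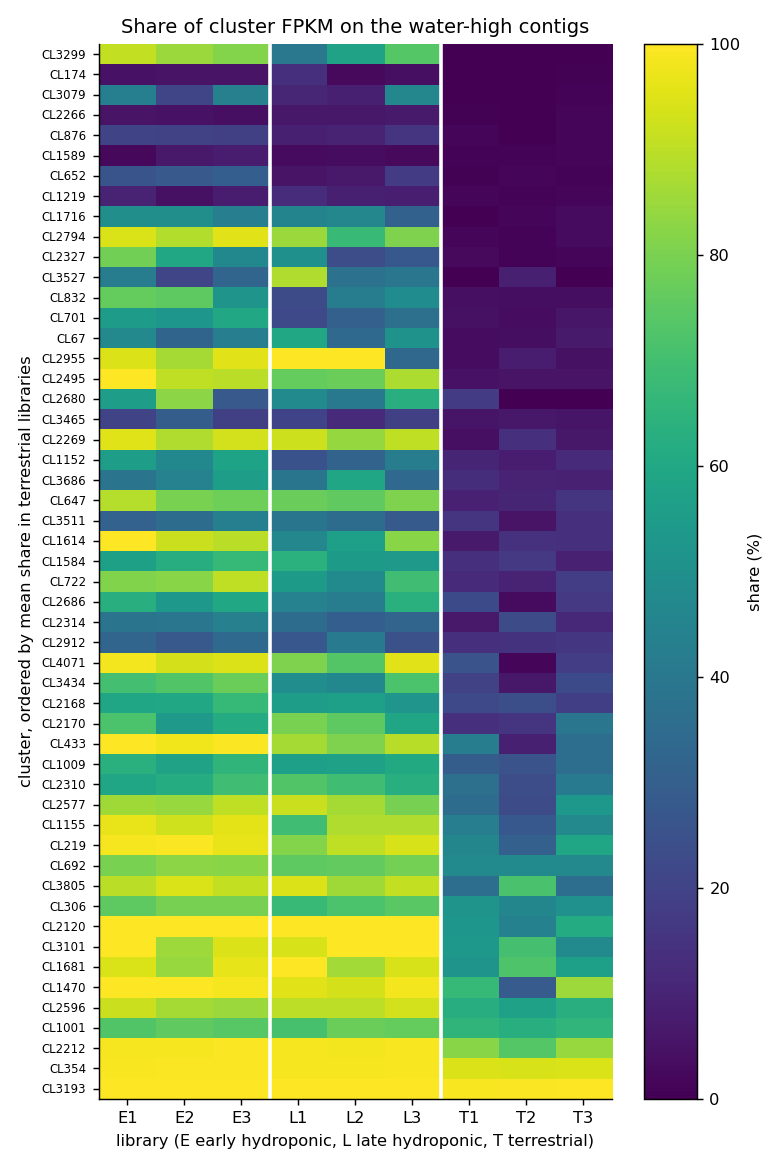
The colour gives the share (%) of each cluster's FPKM that its water-high contigs carried, with libraries in columns (E early hydroponic, L late hydroponic, T terrestrial) and the 52 clusters in rows, ordered by their terrestrial mean. The median share was 71.6 to 75.3% in early, 57.5 to 63.2% in late and 10 to 14.2% in terrestrial libraries, and clusters such as CL3193 at the bottom were near 100% throughout.

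Late against early hydroponic roots is a contrast that the choice of members did not use. It was tested for each contig with edgeR's quasi-likelihood test on all 26747 contigs that passed a filter on low counts, and a call means an adjusted p under 0.05. The filter passed 57 of 57 water-high, 52 of 55 soil-high and 10 of 14 other members. Among the soil-high contigs that passed are the 2 of CL2120 with no count in either water stage. Of the 119 members tested, 19 (16%) were called, against 14.7% of all contigs tested, so the members were not called at a rate far from the background. There were 11 higher and 8 lower in late roots, against 8.37 and 6.3% of all contigs tested. With library totals in place of TMM scaling the split was 16 higher and 4 lower, and the median log2 change over all tested contigs was then 0.18 in place of 0.04.

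By direction, 6 water-high contigs fell (10.5% of those tested) and 2 rose (3.51%) from early to late roots. Over all tested contigs that met the water-high criterion, whatever their cluster, 14.1% fell and 2.71% rose. The median log2 change was -0.38 for the water-high members, against -0.29 for all water-high contigs. Of the soil-high members 9 rose (17.3% of those tested) and 2 fell (3.85%). Among all tested contigs that met the soil-high criterion, 9.37% rose and 1.76% fell. Nothing is read from these counts, since soil-high contigs can pass the filter on their terrestrial counts alone. CL1614.Contig3_mixA and CL2495.Contig1_mixA, which are among the 9, passed in this way. With the filter applied to the early and late libraries alone, an alternative chosen after seeing the data, 41 of the 55 soil-high members passed. Of these 8 rose (19.5%) and 2 fell (4.88%), against 12.1 and 2.18% of all soil-high contigs that passed it. Over all members 106 passed and 19 were called (17.9%), against 16.8% of all contigs, and 17 of these were among the 19 above. None of the 10 other members tested was called by edgeR or DESeq2, while 1 had an unadjusted p under 0.05 with edgeR and 1 was called by limma on log2(FPKM + 1).

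The largest fall was in CL2955.Contig1_mixA, the 9461-base contig whose values are given above. Its log2 change was -3.72 ± 0.54 (SE, n = 3 against 3; edgeR adjusted p = 0.00545), and its ratio of summed counts, early to late, was 12 (95% counting interval 10.6 to 13.6). Without early replicate 1 the log2 change was -3.05 (edgeR adjusted p = 0.0143). CL701.Contig1_mixA, at 25.17, 27.38 and 33.11 FPKM early and 6.39, 10.03 and 11.03 late, fell by 1.78 ± 0.27 on the log2 scale (edgeR adjusted p = 0.00584). In soil it was at 1.67, 1.06 and 2.34 FPKM, and the rule fixed that it lay below both water stages. CL219.Contig1_mixA fell from 97.6 ± 33.8 to 41.7 ± 13.9 FPKM, with 6.95 ± 2.25 in soil, a log2 change of -1.37 ± 0.35 (edgeR adjusted p = 0.0357). CL2212.Contig3_mixA went from 21.96, 55.6 and 31 FPKM early to 17.99, 18.78 and 18.39 late, with 7.72 ± 0.924 in soil (edgeR adjusted p = 0.0431). Both water-high contigs of CL692 fell by less, by 0.39 ± 0.11 in CL692.Contig2_mixA and 0.47 ± 0.1 in CL692.Contig4_mixA on the log2 scale (edgeR adjusted p = 0.041 and 0.0199), and the first overlapped between stages.

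Among soil-high contigs the largest rise was in CL2794.Contig2_mixA, with a log2 change of 3.78 ± 0.62 (SE; edgeR adjusted p = 0.00775) from 73 early to 957 late counts. Without early replicate 2 the change was 4.63 (edgeR adjusted p = 0.0153). CL433.Contig2_mixA rose by 3.65 ± 0.7 (edgeR adjusted p = 0.0131) from 5 to 64 counts, a ratio of 14.8 (95% counting interval 6.03 to 47.2). CL1614.Contig3_mixA, of 201 bases, rose by 3.18 ± 0.83 (edgeR adjusted p = 0.0364) from 2 to 20 counts, a ratio of 11.6 (2.81 to 102). CL2495.Contig1_mixA rose from 4 to 26 counts, a ratio of 7.53 (2.61 to 29.7), and stood at 24.3 ± 1.46 FPKM in soil. These intervals cover counting error only. The rises of CL433, CL1614 and CL2495 thus start from almost no reads in early roots. CL1614.Contig3_mixA and CL2495.Contig1_mixA passed the count filter on their terrestrial counts alone, so nothing is read from their calls.

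The other soil-high contigs that rose started from more counts. CL1155.Contig2_mixA went from 0.577 ± 0.31 FPKM early to 2.57 ± 1.4 late and 9.9 ± 0.846 in soil (SD, n = 3; edgeR adjusted p = 0.0242). CL2327.Contig1_mixA went from 1.08 ± 0.188 to 4.08 ± 1.08, with 18.3 ± 6.2 FPKM in soil (edgeR adjusted p = 0.0162), and CL2266.Contig2_mixA from 1.77 ± 0.856 to 5.41 ± 1.43, with 17.7 ± 2.57 (edgeR adjusted p = 0.0365). CL832.Contig1_mixA and CL174.Contig3_mixA, whose levels are given above, rose by 0.96 ± 0.23 and 0.81 ± 0.21 on the log2 scale (edgeR adjusted p = 0.0264 and 0.0381). In each of these 5 contigs every late library lay above every early one, a separation that the call itself largely brings. Their place below the terrestrial libraries was fixed by the rule.

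Both members of 2 pairs were called higher late, though the soil-high contig of CL2495 passed the count filter on terrestrial counts alone. In CL2794 the water-high contig rose as well, by 2.11 ± 0.47 on the log2 scale (edgeR adjusted p = 0.0223). Without late replicate 1 its change was 1.44 (edgeR adjusted p = 0.0454). The call was lost without early replicate 1, 2 or 3 (edgeR adjusted p up to 0.0828). In CL2495 the water-high CL2495.Contig2_mixA rose from 1.54, 3.58 and 3.36 to 8.58, 8.03 and 5.97 FPKM (edgeR adjusted p = 0.0312), with 1.31 to 1.37 FPKM in soil. The 2 soil-high contigs that fell were CL1716.Contig2_mixA, from 9.05 ± 0.45 to 6.15 ± 0.932 FPKM with 17.3 ± 0.271 in soil (edgeR adjusted p = 0.014), and CL2596.Contig1_mixA, from 4.87 ± 1.42 to 2.5 ± 0.311 with 10.3 ± 0.399 in soil (edgeR adjusted p = 0.0427). No pair had its contigs called in opposite directions by edgeR. At an unadjusted p under 0.05 edgeR gave 4 such pairs, DESeq2 called 2 and limma on log2(FPKM + 1) called 1, all with the water-high contig lower late.

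**Figure D4:**
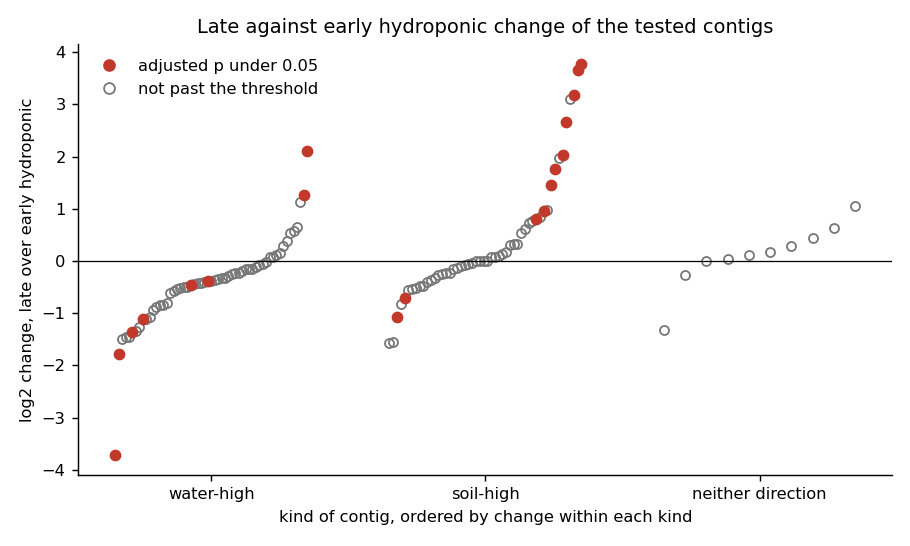
Each point is 1 tested contig, placed by its kind and, within the kind, by its fitted log2 change of late over early hydroponic roots (y axis), with filled points for an adjusted p under 0.05 in edgeR's test. Filled points number 8 of 57 water-high, 11 of 52 soil-high and 0 of 10 other contigs, and the extremes are CL2955.Contig1_mixA at -3.72 and CL2794.Contig2_mixA at 3.78.

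Leaving out single libraries moved the number of calls strongly. Of the 19 calls, 6, 7 and 7 remained without early replicates 1, 2 and 3, 7, 9 and 16 without late replicates 1, 2 and 3, and 11, 19 and 13 without terrestrial replicates 1, 2 and 3. CL2794.Contig2_mixA, CL2955.Contig1_mixA and CL701.Contig1_mixA were called in all 18 alternatives run, with an edgeR adjusted p of at most 0.0396, 0.0216 and 0.03 when a library was left out. CL433.Contig2_mixA missed the threshold without early replicate 3 (edgeR adjusted p = 0.0596), with a log2 change of 3.39 in place of 3.65. Without early replicate 2 its change was 5.18 and it was still called (edgeR adjusted p = 0.0173). CL1716.Contig2_mixA missed the threshold without early replicate 1 (edgeR adjusted p = 0.0548). The other 14 contigs missed it without 3 to 7 of the 9 libraries.

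Whether the balance between contigs of 1 cluster shifted between the water stages was tested with edgeR's test of differential usage, which compares each contig's change with that of its cluster. Of the 51 switching clusters with at least 2 tested contigs, 7 were called (13.7%), against 5.04% of all 2820 clusters tested and 4.44% of the tested clusters of 2 to 4 contigs. The count filter passed 52 soil-high members, but only 41 when applied to the early and late libraries alone. Soil-high contigs of CL219, CL1614, CL2120 and CL2495 are among those that passed on terrestrial counts alone. Nothing is therefore read from the excess of usage calls. CL3193 could not be tested. In each of the 7 clusters the share of the water-high contigs was lower in late than in early roots. The libraries did not overlap in it, a separation that the call itself largely brings. The late share stayed above the terrestrial one, as the rule largely fixes. The early and late libraries tested here are the hydroponic libraries that the rule used against soil.

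CL701 had the firmest shift. Its water-high contig of 1056 bases held 54.9, 52.4 and 59.5% of the cluster's FPKM in early, 21.9, 30.7 and 37% in late and 4.5, 3.15 and 6.07% in terrestrial replicates 1, 2 and 3 (edgeR usage test, adjusted p = 0.00555). Its soil-high partner CL701.Contig2_mixA, of 2491 bases, stayed at 22.7 ± 2.08 FPKM early and 21.4 ± 2.28 late, with 34.8 ± 1.89 in soil (SD, n = 3). The shift between the stages thus lay in the shorter contig. No expected count of either CL701 contig was whole, and in each library their counts added up to a whole number. Their shares therefore rest on an estimated division of reads, and the usage test did not include the error of that division.

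In CL219 the share fell from 98.7, 99.4 and 96.7% to 81.3, 90.5 and 94.1%, with 45.9, 30.6 and 58.9% in soil (edgeR usage test, adjusted p = 0.00845), and its soil-high contig of 275 bases had 2 early and 19 late counts. In CL832 it fell from 76.3, 75.2 and 51.9% to 22.8, 41.9 and 48.7%, with 3.56 to 4.2% in soil (edgeR usage test, adjusted p = 0.0133). In CL433 it fell from 97.9 to 100% early to 80.7 to 89.3% late, with 8.66 to 42.3% in soil (edgeR usage test, adjusted p = 0.0319). CL652, CL1614 and CL692 each had an adjusted p of 0.0372 in edgeR's usage test. Their mean shares went from 27.8 ± 1.84 to 9.88 ± 6.71% in CL652, from 93.8 ± 5.5 to 61.7 ± 18.5% in CL1614 and from 81.6 ± 1.49 to 76.8 ± 2.16% in CL692 (SD, n = 3), with 1.1, 11.8 and 47.4% in soil. At least 1 contig count was fractional in all 9 libraries of CL219, CL832 and CL692. The same held in 5 libraries of CL652 and in 1 each of CL433 and CL1614. Soil-high contigs of CL219 and CL1614 passed the count filter on terrestrial counts alone, so nothing is read from the usage calls of those clusters.

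**Figure D5:**
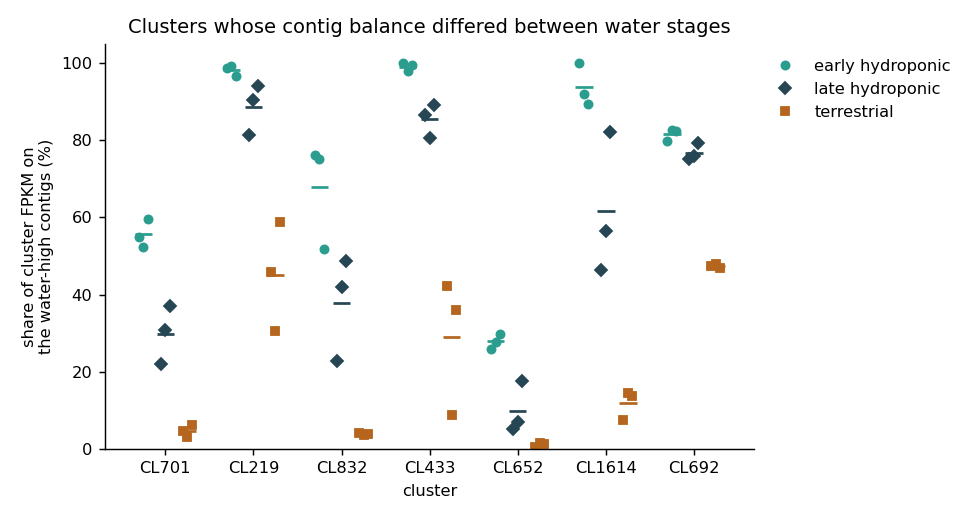
For the 7 clusters called in the usage test, the share (%) of cluster FPKM on the water-high contigs is plotted per library (points) with the mean of 3 libraries (bars) for early hydroponic, late hydroponic and terrestrial roots. Late values lie between the others in every cluster, from a mean of 9.88% in CL652 to 88.6% in CL219.

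These usage calls were fragile apart from CL701, which held without each library in turn and missed the threshold only with Simes adjustment (adjusted p = 0.0783 in edgeR's test). Of the 7 calls, 2, 1 and 3 remained without early replicates 1, 2 and 3, 1, 3 and 6 without late replicates 1, 2 and 3, and 3, 4 and 4 without terrestrial replicates 1, 2 and 3. Simes adjustment left CL219 alone (adjusted p = 0.0374 in edgeR's test), 1 of 51 clusters against 2.2% of all clusters tested, so the excess over the background was not seen there. With the count filter on the early and late libraries alone, 7 switching clusters were called, and 5 of these were among the 7 above. Of all clusters tested under that filter, 5.12% were called. Only 41 of the 55 soil-high members passed it, so the 7 are not a count out of 51 and no share is compared. CL219 and CL1614 were then not called (adjusted p = 0.763 and 0.997 in edgeR's test). Their soil-high contigs, with few counts in water, did not pass that filter. These values therefore do not compare water-high with soil-high contigs, and nothing is read from them.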

How the data were processed

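RNA of 9 root samples was analysed, and a pooled root sample entered no comparison. Per the file headers, the authors deposited an expected count, an FPKM value and a contig length for each listed contig. Per the labels' protocols, total RNA was taken from frozen roots with Trizol reagent. Assembler, aligner, counting program and strandedness are not given in the sources used here. A contig unlisted in a library was entered as 0, an inference.

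The members and lists were chosen with earlier results of these data known. Hydroponic against terrestrial values chose the members and were not tested. Rounded expected counts entered edgeR 4.0.16 under R 4.3.3 (TMM scaling, filterByExpr with a minimum count of 10, 3 groups fitted together with 6 residual degrees of freedom, robust quasi-likelihood, no block, Benjamini-Hochberg adjustment over all 26747 contigs or 2820 clusters). Standard errors were derived from the F statistic. The usage test was diffSpliceDGE with its cluster-level F test. Both tests were tested on simulated data.

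A count was taken as whole within 0.005. Named were the first 8 clusters by the smaller log2 change of the pair (both contigs averaging at least 5 FPKM), the 3 with the highest summed FPKM, the 3 with the most even sum, up to 6 with usage called, pairs called in opposite directions, 3 clusters with abundant contigs of neither direction and the clusters at the edge of the rule. The remaining called contigs and CL3299 and CL2120 were named after their values were seen. Alternatives were DESeq2 1.42.0, limma 3.58.1, other scalings and filters (a filter on the early and late libraries alone was added after seeing the data), a replicate block and leaving out each library.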

Additional observations from a re-analysis of the deposited data

How the results depend on the processing

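The number of members called between the water stages moved from 19 to 33 with DESeq2 and to 9 with the replicate number as a block, and ran from 7 to 29 when 1 library was left out. The share called over all contigs tested moved with it, from 14.7 to 21% with DESeq2, to 11.6% with the block and to 5.68 to 20.1% with 1 library left out. Clusters with usage called moved from 7 to 1 with Simes adjustment, 4 with limma voom and 2 with the replicate block, and ran from 1 to 9 when 1 library was left out. The shares over all clusters tested moved from 5.04 to 2.2, 4.47 and 3.69% in the same order, and ran from 3.08 to 5.73% with 1 library left out. With Simes adjustment and with the block, the switching clusters were therefore not called clearly more often than all clusters. The same held without early replicate 1 or 2 (2 and 1 called, against 3.55 and 3.14% of all clusters). It also held without late replicate 1 (1 called, against 3.72%). Nothing is read from the excess in the other settings, for the reason given with the usage test. Clusters that meet the rule moved from 52 to 33 at a ratio of at least 2, to 21 at a mean of at least 5 FPKM and to 10 when both contigs needed whole counts, and ran from 54 to 82 when 1 library was left out, with 82 without terrestrial replicate 3. With TMM scaling 48 clusters met it, of which 38 were among the 52. At a ratio of at least 2 the mean of the library medians of the water-high share moved from 73.6 to 81.5% in early, from 60.9 to 64.2% in late and from 12.7 to 9.21% in terrestrial libraries. Deviations of same-numbered libraries correlated at -0.0927 to 0.135, with 1 of 9 pairs over 0.1, and libraries matched their own number best in 9 of 18 comparisons. Between early and late roots, same-numbered libraries correlated at 0.0547, 0.0719 and 0.0211, and differently numbered ones at -0.0578 to 0.000114. Correlations this weak cannot tell whether replicate numbers pair the samples. Over 41 named contigs and 725 alternatives, 650 kept the side of the threshold and the direction where called, 48 lost a call and 27 gained one, and no call reversed. Contigs with under 10 counts in a stage limit the precision of their changes, and none of these settings tells whether contigs of a cluster are splice forms, alleles or paralogues.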
